A study of Mus musculus with 14 samples.

Results

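Liver RNA from obese mice under caloric restriction was compared with liver RNA from obese mice that stayed on the high-fat diet (HFD). The comparison takes 9 of the 14 arrays in the series, namely the 5 arrays of the restricted group and the 4 arrays of the HFD control group, chosen by their labels alone. All mice were male C57Bl/6J, started a 60% HFD at 6 weeks of age and ate it freely for 4 weeks to become obese. The controls then continued on the HFD for another 4 weeks. The restricted mice spent the same 4 weeks on 15 to 30% fewer calories, set so that their body weight matched that of a further group given the HFD with canagliflozin at 30 mg/kg (5 arrays), an inhibitor of the renal glucose transporter SGLT2. The comparison therefore asks which hepatic transcripts differ with the weight-matched restriction in the absence of the drug. Every group carries the diet-induced obesity of the run-in, no lean group is part of the series, and the labels do not tie each array to a mouse of its own. P values thus measure the spread between arrays. Values are log2 signals per gene, for 22180 genes with 1 probe set each.

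Caloric restriction lowers the supply of dietary energy to the liver. In the fed state, insulin drives hepatic glycogen and fat synthesis and holds FOXO transcription factors in check, while in the energy-poor state glucagon, glucocorticoids and fatty acids acting through PPAR alpha favour glucose output, fatty acid oxidation and ketone formation. Growth hormone, whose pulsatile release in male rodents sets the sex-biased part of the liver transcriptome, and the load on the endoplasmic reticulum (ER), where secreted proteins are folded, are further systems through which diet is known to act in this tissue.

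The 9 arrays were alike. Pairwise correlations over all genes lay between 0.988 and 0.992, and their mean was 0.990 within controls, 0.990 within restricted arrays and 0.990 between the groups. Array medians were 4.07 to 4.12. Markers of hepatocytes were bright and even, with a mean over 8 measured markers of 11.71 to 11.79 in controls and 11.70 to 11.81 under restriction. Restricted arrays 1 and 5 stood apart from the other restricted arrays for several gene groups described below, and values without both are given there. That alternative was chosen after the values were seen.

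Across all 22180 genes, 11201 were higher in value and 10979 lower under restriction, with a median difference of 0.00 on the log2 scale. No gene had a limma adjusted p under 0.05 (0 of 22180, 0%). An unadjusted p under 0.05 was reached by 872 genes (3.93%), of which 457 were higher (2.06%) and 415 lower (1.87%), whereas 1109 would be counted by chance at that threshold. All 5 restricted arrays lay above all 4 controls for 156 genes (0.703%) and below them for 154 genes (0.694%). Only 2 genes differed by more than 1 on the log2 scale, Cyp4a14 and the olfactory receptor gene Olfr331, and 72 differed by more than 0.5. Olfr331, dim in liver and named here after its values were seen, had the smallest limma adjusted p of the comparison (0.358, difference -1.13 ± 0.19 SE), and every other gene had an adjusted p of at least 0.999. Among the 6445 genes with a mean of at least 6 over the 14 arrays, the 95% confidence interval of the difference lay within 1 log2 unit to either side for 98.9% and within 0.5 for 89.1%. The deposited values therefore bound most well-detected transcripts to a difference under 1 log2 unit, while differences within those intervals were not detectable with 4 and 5 arrays.

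**Figure D1:**
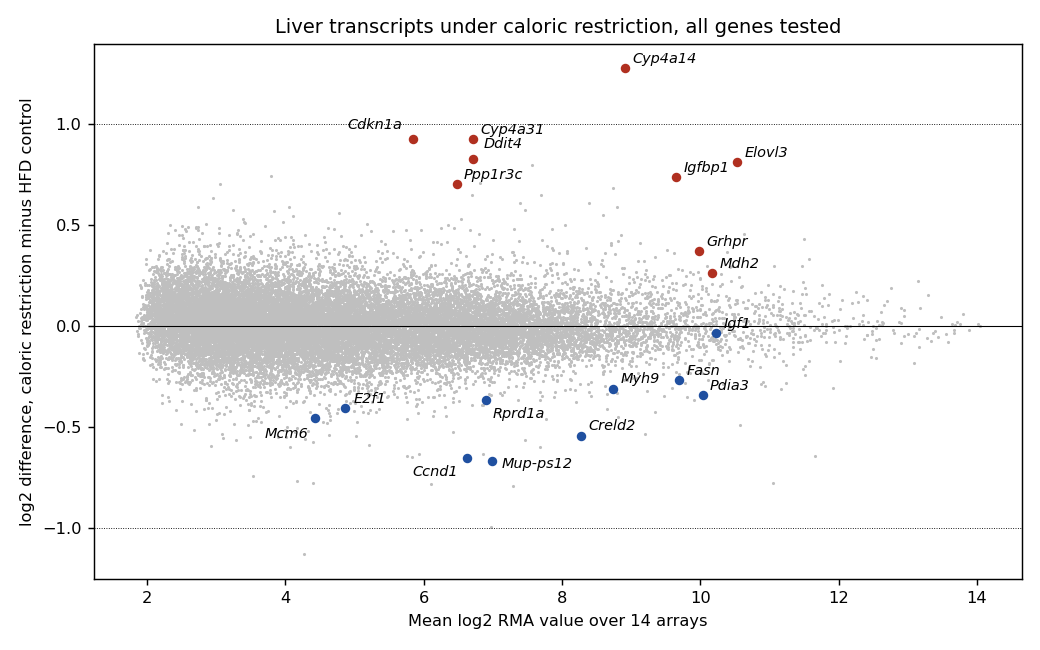
Difference between caloric restriction and HFD control on the log2 scale (vertical axis) against the mean log2 value over 14 arrays (horizontal axis), 1 grey point per gene for 22180 genes. Coloured points are genes named in the text (red higher, blue lower under restriction), and the dotted lines mark a difference of 1 in each direction, which 2 genes pass.

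Because no gene passed the threshold, the genes below are described by their values, and those named first have the smallest unadjusted p or no overlap between the groups. Among genes lower under restriction, Rprd1a, which encodes a protein that binds the tail of RNA polymerase II, read 7.13, 6.94, 7.13 and 7.17 in control arrays 1 to 4 and 6.77, 6.71, 6.78, 6.82 and 6.54 in restricted arrays 1 to 5. The groups did not overlap, and the difference was -0.37 ± 0.09 (SE, 95% interval -0.55 to -0.18, limma adjusted p = 0.999). Polg, the catalytic subunit of the mitochondrial DNA polymerase, read 6.60, 6.64, 6.55 and 6.53 in controls and 6.12, 6.06, 6.03, 6.11 and 6.34 under restriction, again without overlap (-0.45 ± 0.13 SE). Other genes of mitochondrial upkeep in this set were Mrps5, a protein of the mitochondrial ribosome (-0.26 ± 0.09), and Coq2, an enzyme of ubiquinone synthesis (-0.32 ± 0.11), whose restricted arrays 2 and 5 reached above control array 4. Myh9, the heavy chain of non-muscle myosin IIA, was 8.80 to 9.06 in controls and 8.49 to 8.70 under restriction. Rassf8, which carries a Ras association domain, was 6.33 to 6.55 in controls and 5.90 to 6.16 under restriction.

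Mup-ps12, annotated as a pseudogene of the major urinary proteins, read 7.05, 7.65, 7.05 and 7.67 in controls and 6.77, 6.75, 6.94, 6.43 and 6.55 under restriction, a difference of -0.67 ± 0.18 (SE). Copies of this family are nearly identical, so the gene behind the signal is uncertain, and the same holds for Apol9b (-0.43 ± 0.15). The remaining named genes on this side were Eva1a (-0.30 ± 0.10), Snapc5, a subunit of the complex that activates small nuclear RNA genes (-0.31 ± 0.10), and Sarnp, a factor of messenger RNA export (-0.34 ± 0.13).

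Among genes higher under restriction, Ess2 read 5.98, 5.93, 6.07 and 6.13 in controls and 6.22 to 6.42 under restriction, without overlap (0.30 ± 0.08 SE, 95% interval 0.12 to 0.47, limma adjusted p = 0.999). Dhrsx, an oxidoreductase of the short-chain family, was likewise above all controls in every restricted array, at 6.57 to 6.68 against 6.18 to 6.54. Several metabolic enzymes belonged to this set. Grhpr, which reduces glyoxylate in the liver, was 9.50 to 9.97 in controls and 9.92 to 10.30 under restriction (0.37 ± 0.11), with restricted array 1 within the control range. Mdh2, the mitochondrial malate dehydrogenase of the citric acid cycle, read 9.87, 9.90, 10.02 and 10.17 in controls and 10.34, 10.27, 10.17, 10.27 and 10.20 under restriction (0.26 ± 0.09), where restricted array 3 and control array 4 touched. Cbr1, a carbonyl reductase, differed by 0.45 ± 0.15, and Tst, a mitochondrial sulfurtransferase, by 0.26 ± 0.10 with no overlap. Regulators in the set included the SUMO protease Senp2 (0.28 ± 0.09), the transfer RNA methyltransferase Trmt1 (0.31 ± 0.10), the zinc finger factor Vezf1 (0.27 ± 0.10) and the ribosome assembly factor Urb2 (0.53 ± 0.18).

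**Figure D2:**
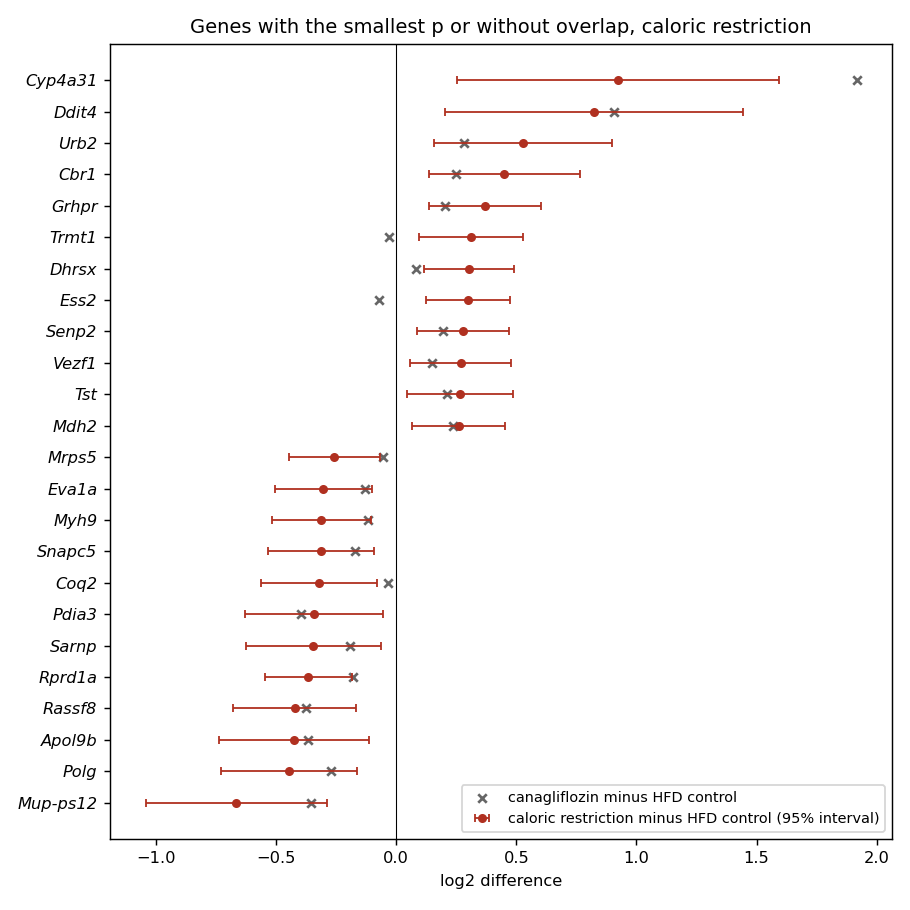
Log2 difference from HFD control (horizontal axis) for the 24 genes with the smallest p or without overlap between groups. Red points are caloric restriction with 95% intervals from the limma fit and grey crosses are canagliflozin, which shares the 4 control arrays. The red points run from -0.67 for Mup-ps12 to 0.92 for Cyp4a31.

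Gene groups were examined through 28 pathway lists, which hold 521 distinct measured genes. Of these, 276 were higher in value and 245 lower. An unadjusted p under 0.05 was reached by 10 higher (1.92%) and 9 lower members (1.73%), shares close to the 2.06% and 1.87% of all genes. All 5 restricted arrays were above all controls for 0 of the 521 and below them for 5 (0.960%), against 0.694% of all genes. In 15 of the 28 lists no member reached an unadjusted p under 0.05. Members of a list share regulators and arrays, so counts of members on either side describe these 9 arrays and carry no test.

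**Figure D3:**
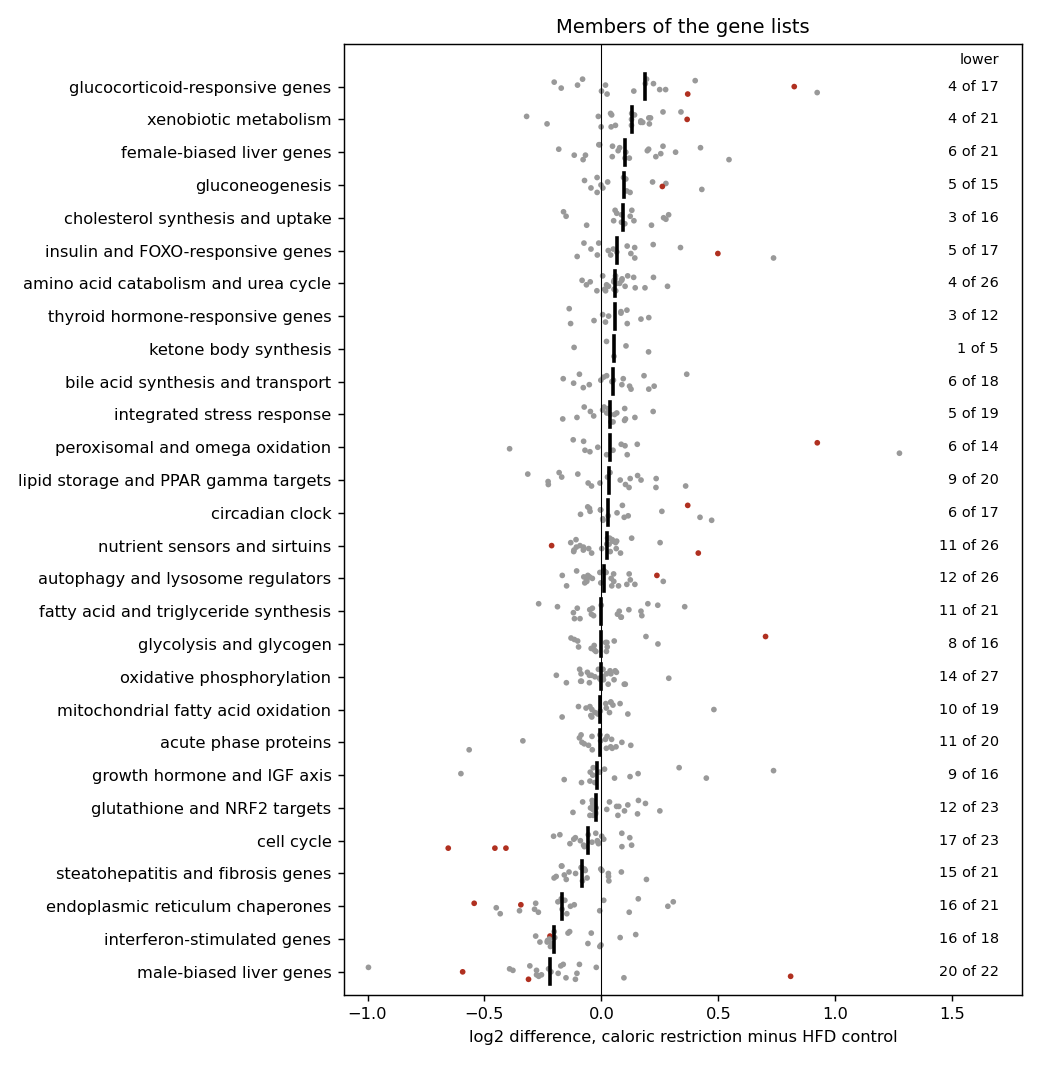
Log2 difference between caloric restriction and HFD control (horizontal axis) for every measured member of the 28 pathway lists (rows, ordered by median). Each point is a gene, red where its unadjusted p was under 0.05, the black bar is the median and the right-hand column counts lower members. Medians run from -0.22 for male-biased genes to 0.19 for glucocorticoid-responsive genes.

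The ER chaperones were among the lists with the lowest medians. These proteins fold and quality-check newly made secretory proteins, and their genes are induced by the unfolded protein response through the ER stress response element (ERSE), which is bound by the transcription factors ATF6 and NF-Y. The RefSeq promoter windows of GRCm38.p6, which reach from 250 bases before to 50 after each annotated start, were searched on both strands for the letters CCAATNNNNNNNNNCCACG. The motif stood in 39 of 32851 windows (0.119%), or 37 of 27025 genes (0.137%). Of the 18 list members with a window, 8 held it, namely Calr, Canx, Creld2, Dnajc3, Hsp90b1, Hspa5, Pdia6 and Syvn1. The list was drawn up from known ER chaperones, so a high share describes the list and not the diet. Stretches around 1 copy of the motif are shown for 5 members whose values are given below (Hsp90b1 holds a second copy), read 5′ to 3′ on the strand of the gene, with the fixed letters of the motif or of its reverse complement in capitals.
Hspa5, chr2:34772005-34772063, plus strand: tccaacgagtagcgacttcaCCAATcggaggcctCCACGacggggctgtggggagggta
Hsp90b1, chr10:86705513-86705571, minus strand: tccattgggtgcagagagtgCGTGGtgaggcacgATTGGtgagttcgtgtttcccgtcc
Calr, chr8:84847055-84847113, minus strand: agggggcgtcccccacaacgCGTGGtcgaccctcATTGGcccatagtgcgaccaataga
Pdia6, chr12:17266471-17266529, plus strand: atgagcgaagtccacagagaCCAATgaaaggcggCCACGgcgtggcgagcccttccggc
Creld2, chr15:88819500-88819558, plus strand: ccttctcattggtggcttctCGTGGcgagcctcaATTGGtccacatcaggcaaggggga

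Of 21 measured ER genes, 16 were lower in value under restriction, with a median of -0.17 against 0.00 over all genes. An unadjusted p under 0.05 was reached by 2 of them, both lower, and none passed after adjustment. That count of lower members was 9 without restricted array 2 (17 of 21 lower, median -0.24). It was 0 without restricted array 5, without control array 2, or with restricted arrays 1 and 5 both left out. Without control array 2, 1 higher member reached that p. Pdia3, a disulfide isomerase that works with the lectin chaperones, read 10.29, 10.43, 10.22 and 10.26 in control arrays 1 to 4 and 9.93, 10.20, 10.04 and 9.61 in restricted arrays 1, 2, 3 and 5, with array 4 between arrays 1 and 3. All 5 restricted arrays were below all controls, with array 5 far below the others (-0.34 ± 0.14 SE, 95% interval -0.63 to -0.06, limma adjusted p = 0.999). P4hb, the founding disulfide isomerase, was 11.15 to 11.23 in controls and 10.98 to 11.07 under restriction, also without overlap. Canx, a membrane-bound lectin chaperone, overlapped, at 10.77 to 10.95 against 10.53 to 10.87.

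The genes shown with the motif differed in the same direction but overlapped. Creld2, a secreted ER stress marker, read 9.15, 8.97, 8.70 and 8.10 in controls and 7.89, 8.88, 8.05, 8.63 and 7.49 under restriction (-0.54 ± 0.24 SE). Pdia6, another disulfide isomerase, read 10.17, 10.11, 9.96 and 10.05 in controls and 9.50, 10.23, 9.94, 9.70 and 9.24 under restriction. Calr, the calcium-binding lectin chaperone, read 11.19, 11.09, 11.13 and 10.96 in controls and 10.70, 11.12, 10.93, 10.93 and 10.34 under restriction. For each of these genes restricted arrays 1 and 5 were the lowest of the 9 arrays, while restricted array 2 was at the level of the controls. Hsp90b1, the ER form of HSP90, was 11.29 to 11.55 in controls and 10.86, 11.68, 11.20, 11.15 and 10.78 under restriction. Hspa5, the master chaperone BiP, differed by -0.15 ± 0.19 and reached both above and below the controls, at 8.82 in restricted array 2 and 7.73 in restricted array 5. All 8 members with the motif were lower in value, and 6 of the 10 members with a window but no motif were. Of the 8, Hspa5 and Syvn1 (-0.12 ± 0.15) differed by less than their SE. Members share arrays, and the part of the motif was not tested.

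The 5 members that were higher in value were Sec61b, a subunit of the translocation channel (0.31 ± 0.17), Dnajb9, a cochaperone gene (0.28 ± 0.22), Herpud1, which serves ER-associated degradation (0.16 ± 0.11), Atf6 itself (0.12 ± 0.10) and Edem1, another degradation factor (0.01 ± 0.12). Syvn1, a ubiquitin ligase of ER-associated degradation, was lower in value (-0.12 ± 0.15), and Xbp1, the transcription factor activated by IRE1, was 9.25 to 9.55 in controls and 9.04 to 9.52 under restriction. The mean over the 21 genes was 8.85 to 9.10 in controls and 8.69, 9.12, 8.89, 8.98 and 8.47 in restricted arrays 1 to 5. Restricted arrays 1 and 5 had the lowest means of the 9 arrays. They were picked after the values were seen, and leaving out the lowest restricted arrays must shrink a lower difference. Without restricted array 5, 13 of 21 genes were lower (median -0.12), and without restricted arrays 1 and 5, 11 of 21 were lower with a median of -0.00.

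The same arrays set apart the sex-biased genes. In male mice, pulses of growth hormone activate STAT5 in hepatocytes, which supports male-biased genes and silences female-biased ones. Of 22 measured male-biased genes, 20 were lower in value under restriction (median -0.22), and 2 of them reached an unadjusted p under 0.05. That count was 6 without restricted array 3 (median -0.27) and 0 without restricted array 5 (median -0.15). Moxd1, a monooxygenase-like gene, read 9.94, 8.04, 6.20 and 6.72 in controls and 4.41, 7.20, 9.33, 8.41 and 4.29 under restriction. Restricted arrays 1 and 5 were below every control, whereas restricted arrays 3 and 4 were above 3 of the 4 controls (mean 7.72 ± 1.67 SD, n = 4, in controls and 6.73 ± 2.30, n = 5, under restriction). Hsd3b5, a male-specific steroid dehydrogenase, showed a smaller version of that split, at 8.27 to 9.18 in controls and 7.65, 9.05, 9.21, 8.47 and 7.91 under restriction. Selenbp2, a selenium-binding protein gene with a close copy, was 11.87 to 12.68 in controls and 11.25, 12.22, 12.72, 12.04 and 11.01 under restriction. The 2 lower members with an unadjusted p under 0.05 were Ugt2b38, a dim glucuronosyltransferase gene (-0.59 ± 0.23), and Mup21 (-0.31 ± 0.15), each from a family of near copies. With genes of a mean of at least 5 only, 0 lower members reached that p. For 1 of the 22 members all 5 restricted arrays lay below all 4 controls, against 0.694% of all genes.

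Elovl3, a male-biased elongase of very long fatty acids, ran against its list and was its 1 higher member with an unadjusted p under 0.05. It read 9.32, 9.46, 10.51 and 10.02 in controls and 9.78, 10.56, 10.40, 11.78 and 10.66 under restriction, a difference of 0.81 ± 0.30 (SE, 95% interval 0.18 to 1.44). The groups overlapped, and the value was 0.52 without restricted array 4 and 1.04 without control array 3. The Elovl3 difference was 1.09 without restricted arrays 1 and 5, while 11 of 22 male-biased genes were then lower with a median of -0.02.

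Female-biased genes mirrored the male-biased ones by array. Of 21 measured members, 12 of them dim with a mean under 5, 15 were higher in value (median 0.10). Cyp2b9, a cytochrome P450 normally silent in male liver, read 3.23, 3.26, 4.18 and 4.88 in controls and 7.70, 2.77, 3.16, 3.23 and 5.32 under restriction. Restricted array 1 stood above all other arrays, array 5 above all controls, and the other 3 restricted arrays at the lower end. Hamp2, a hepcidin gene, was 7.01 to 8.54 in controls and 9.34, 7.10, 6.92, 8.06 and 8.92 under restriction, with arrays 1 and 5 again the highest. Cyp17a1, a steroid hydroxylase, did not follow, at 8.80 in restricted array 1 and 10.29 in array 5 but 6.90 in array 3, against 7.84 to 9.32 in controls. Without restricted array 5, 12 of 21 members were lower (median -0.01), and without arrays 1 and 5, 13 of 21 were lower. Of the 13 marker lists, a few had their lowest or highest means of the 9 arrays in restricted arrays 1 and 5. The margins were small and the levels mostly dim. The mean of 5 adipocyte markers was 3.82 and 3.87 there, the lowest of the 9 arrays, and 3.97 to 4.11 in the others. The mean of 7 pancreatic acinar markers was 3.83 and 3.73 there, against 3.57 to 3.72 in controls and 3.72 in restricted array 4. The 1 measured erythroid marker was 3.88 and 3.99, against 3.44 to 3.87 in controls, so array 1 barely exceeded control array 1. The macrophage mean was 6.37 in restricted array 5, below the 6.47 to 7.35 of controls, but 6.92 in restricted array 1, within that range. The part of these cells in the sex-biased and ER results was not tested.

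**Figure D4:**
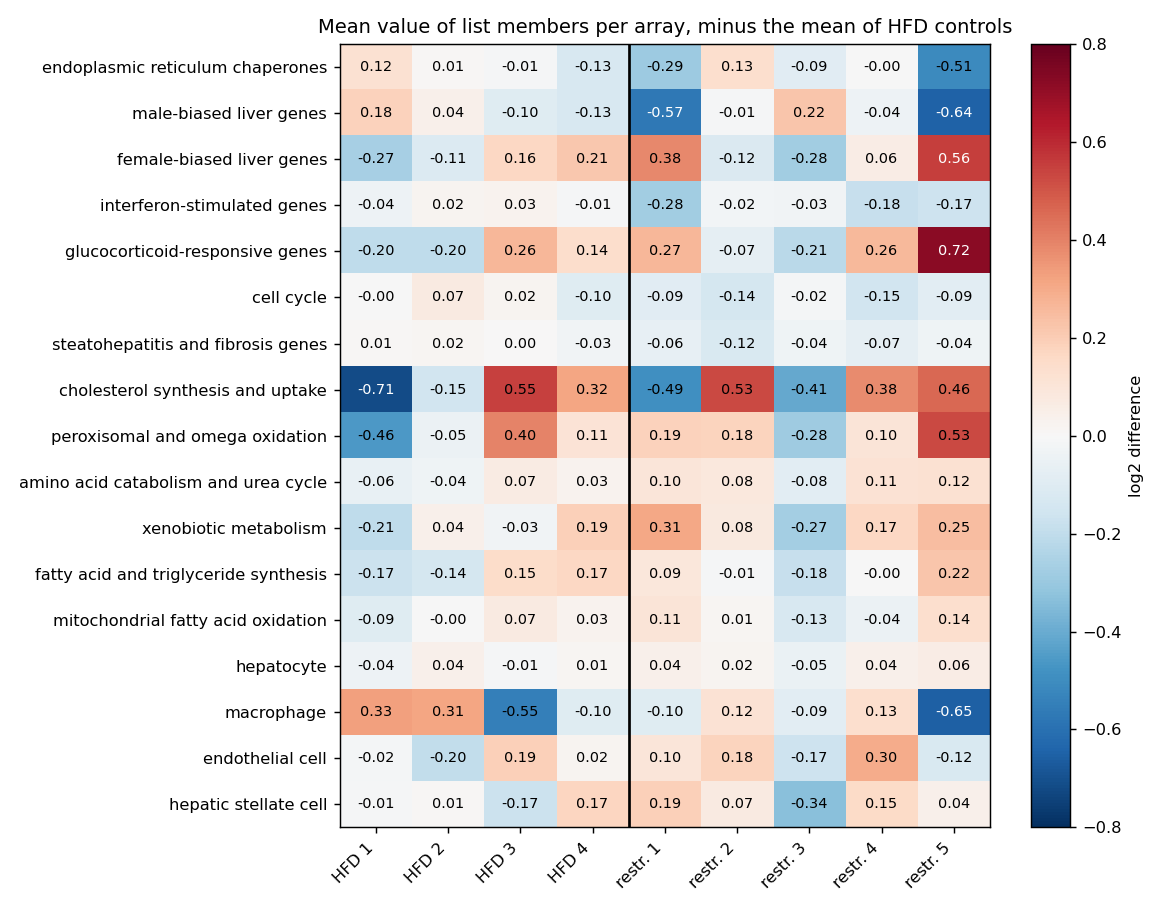
Mean log2 value of the measured members of 13 pathway lists and 4 marker lists (rows) in each of the 9 arrays (columns), minus the mean of the 4 HFD controls; colour and printed number give the log2 difference. Restricted arrays 1 and 5 read -0.29 and -0.51 for ER chaperones and -0.57 and -0.64 for male-biased genes, whereas the hepatocyte row stays between -0.05 and 0.06.

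Interferon-stimulated genes carry antiviral functions and are driven through the interferon-stimulated response element (ISRE). The letters GAAANNGAAA were searched on both strands of the same windows. They stood in 1131 of 32851 promoters (3.44%), or 1079 of 27025 genes (3.99%), and in 9 of the 14 list members with a window. The list was drawn up from known interferon-stimulated genes, so a high share describes the list and not the diet. The motif can overlap itself, as it does in Isg15, and Ifit1 holds a second copy. In the stretches below, capitals mark 1 copy per gene. Stretches are shown for 3 members, 5′ to 3′ on the strand of the gene, with the fixed letters in capitals.
Isg15, chr4:156200855-156200904, minus strand: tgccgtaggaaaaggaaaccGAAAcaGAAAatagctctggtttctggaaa
Ifit1, chr19:34640784-34640833, plus strand: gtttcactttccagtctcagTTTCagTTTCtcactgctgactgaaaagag
Stat2, chr10:128270256-128270305, plus strand: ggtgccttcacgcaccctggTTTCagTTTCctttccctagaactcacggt

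Of 18 measured interferon-stimulated genes, 16 were lower in value under restriction (median -0.20 against 0.00 over all genes). Only Irf9 reached an unadjusted p under 0.05. The count was 5 without restricted array 2, 3 without control array 1 or restricted array 3, and 0 without control array 2, without restricted array 1, or when the 9 arrays were fitted alone. Without restricted array 1 the median was -0.12. Irf9, a DNA-binding factor that recognises the ISRE, read 7.09, 7.26, 7.03 and 7.12 in controls and 6.68, 7.14, 6.89, 6.83 and 6.98 under restriction (-0.22 ± 0.10 SE). Restricted array 2 overlapped the controls and the other 4 lay below them. Isg15, a ubiquitin-like modifier, was 4.20 to 4.80 in controls and 3.99, 4.31, 4.23, 4.23 and 3.97 under restriction. Ifit1, which binds foreign RNA caps, was 5.69 to 6.27 in controls and 5.81 to 6.20 under restriction. Stat2, a signal transducer downstream of the interferon receptor, reached at most 7.84 in controls and read 7.93, 7.44, 7.37 and 7.46 in restricted arrays 2 to 5, with restricted array 1 the lowest of all (-0.23 ± 0.17).

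Usp18, the protease that removes Isg15 from proteins, differed in spread. It read 6.32, 6.37, 6.40 and 6.49 in controls and 5.53, 6.59, 6.59, 5.75 and 6.12 under restriction. Of the restricted arrays, 3 were below and 2 above every control. All 9 members with the motif were lower in value, as were 4 of the 5 without it. Of the 9, Rsad2 (-0.007 ± 0.14), Cxcl10 (-0.04 ± 0.12) and Ifit3 (-0.06 ± 0.15) differed by less than their SE. Members share arrays, and the part of the motif was not tested. The mean over the list was 5.94 to 6.01 in controls and 5.70, 5.96, 5.95, 5.80 and 5.82 in restricted arrays 1 to 5. Without restricted arrays 1 and 5, 15 of 18 genes were lower but the median was -0.08, and without control array 3, 12 of 18 were lower (median -0.19). The 10 measured lymphocyte markers, 8 of them dim, had a mean of 3.97 to 4.07 in controls and 3.81 to 4.23 under restriction, and their part in the result was not tested.

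Genes that respond to glucocorticoids, the adrenal hormones that rise when food is short, were higher in value for 13 of 17 members (median 0.19). The 2 members with an unadjusted p under 0.05 were Ddit4 and Per1. The count was 4 without control array 3 and 1 without control array 1 or 2 or restricted array 4 or 5. Ddit4, whose product restrains mTORC1, read 6.07, 5.84, 6.72 and 5.75 in controls and 6.97, 6.58, 6.17, 7.38 and 7.50 under restriction. Of the restricted arrays, 3 were above every control (0.82 ± 0.29 SE, 95% interval 0.20 to 1.45, limma adjusted p = 0.999). Per1, a clock gene with glucocorticoid response elements, read 7.36, 7.61, 8.19 and 8.24 in controls and 7.88, 8.07, 8.38, 8.43 and 8.34 under restriction (0.37 ± 0.17), and its value was 0.20 without control array 1.

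Cdkn1a, the cyclin-dependent kinase inhibitor p21, split the restricted group. It read 4.70, 4.98, 5.96 and 5.83 in controls and 6.65, 4.94, 4.94, 7.33 and 7.59 under restriction, so that arrays 1, 4 and 5 were above all controls and arrays 2 and 3 near the lowest (0.92 ± 0.50). Its difference was 0.37 without restricted arrays 1 and 5. The classical targets Fkbp5, a cochaperone of the receptor (0.19 ± 0.17), Tsc22d3, also called GILZ (0.27 ± 0.17), and Tat, tyrosine aminotransferase (0.22 ± 0.13), were higher in value and overlapped. The metallothionein Mt2 was 9.78 to 10.77 in controls and 10.94, 9.20, 9.30, 9.17 and 11.90 under restriction, where only arrays 1 and 5 exceeded the controls. Without arrays 1 and 5, 10 of 17 list members were higher (median 0.07). An unadjusted p under 0.05 was then reached by 2 lower members and 1 higher member.

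Of 17 circadian clock genes, 11 were higher in value (median 0.03), and Per1 alone reached an unadjusted p under 0.05. The direction turned without control array 2 (8 of 17 higher, median -0.02), and no clock gene reached that p without control array 1 or 2, without restricted array 5, or when the 9 arrays were fitted alone. Ciart, a clock repressor, differed by 0.42 ± 0.23. Arntl, the core activator BMAL1, was 4.77 to 5.09 in controls and 5.48, 4.88, 4.57, 6.70 and 5.42 under restriction, with array 4 well above the others. Nr1d1, which represses Arntl, differed by 0.07 ± 0.28 and Dbp, an output gene, by -0.09 ± 0.19. The sources used here do not give the hour of tissue collection or the feeding schedule.

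Cell cycle genes were mostly dim in these livers, with 16 of 23 members at a mean under 5. Lower values were seen for 17 of 23 (median -0.06), and 3 reached an unadjusted p under 0.05, all lower. Without control array 2, 13 of 23 were lower and 5 reached that p. E2f1, the transcription factor that opens S phase, read 5.17, 5.11, 5.38 and 5.07 in controls and 4.70, 4.74, 4.85, 4.86 and 4.72 under restriction. The groups did not overlap. Restricted arrays 1 and 5 were the lowest, but all 5 lay between 4.70 and 4.86 (-0.41 ± 0.10 SE, 95% interval -0.63 to -0.19, limma adjusted p = 0.999, and -0.37 without those arrays). Mcm6, a subunit of the replicative helicase, read 4.55, 4.96, 4.84 and 4.39 in controls and 3.98, 4.19, 4.31, 4.25 and 4.41 under restriction (-0.46 ± 0.12), with control array 4 and restricted array 5 touching. Ccnd1, cyclin D1, read 7.42, 7.27, 7.79 and 6.24 in controls and 6.19, 6.36, 7.18, 6.46 and 6.45 under restriction. Control array 4 had a low Ccnd1 value and restricted array 3 a high one, and the difference of -0.65 ± 0.24 was -0.97 without the former and -0.45 without control array 3.

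Mki67, a marker of cycling cells, was 4.04 to 4.26 in controls and 3.95 to 4.00 under restriction, again without overlap but over a span near the array medians. Pcna, the sliding clamp, differed by 0.01 ± 0.10 and Cdk1, the mitotic kinase, by -0.12 ± 0.14. When genes with a mean under 5 were left out, E2f1 and Mcm6 among them, 4 of 7 remaining members were lower. Of these, 1 reached an unadjusted p under 0.05. In whole liver RNA, fewer cycling cells and less of the transcript per cell cannot be told apart, which holds for every gene here that other cell types express.

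**Figure D5:**
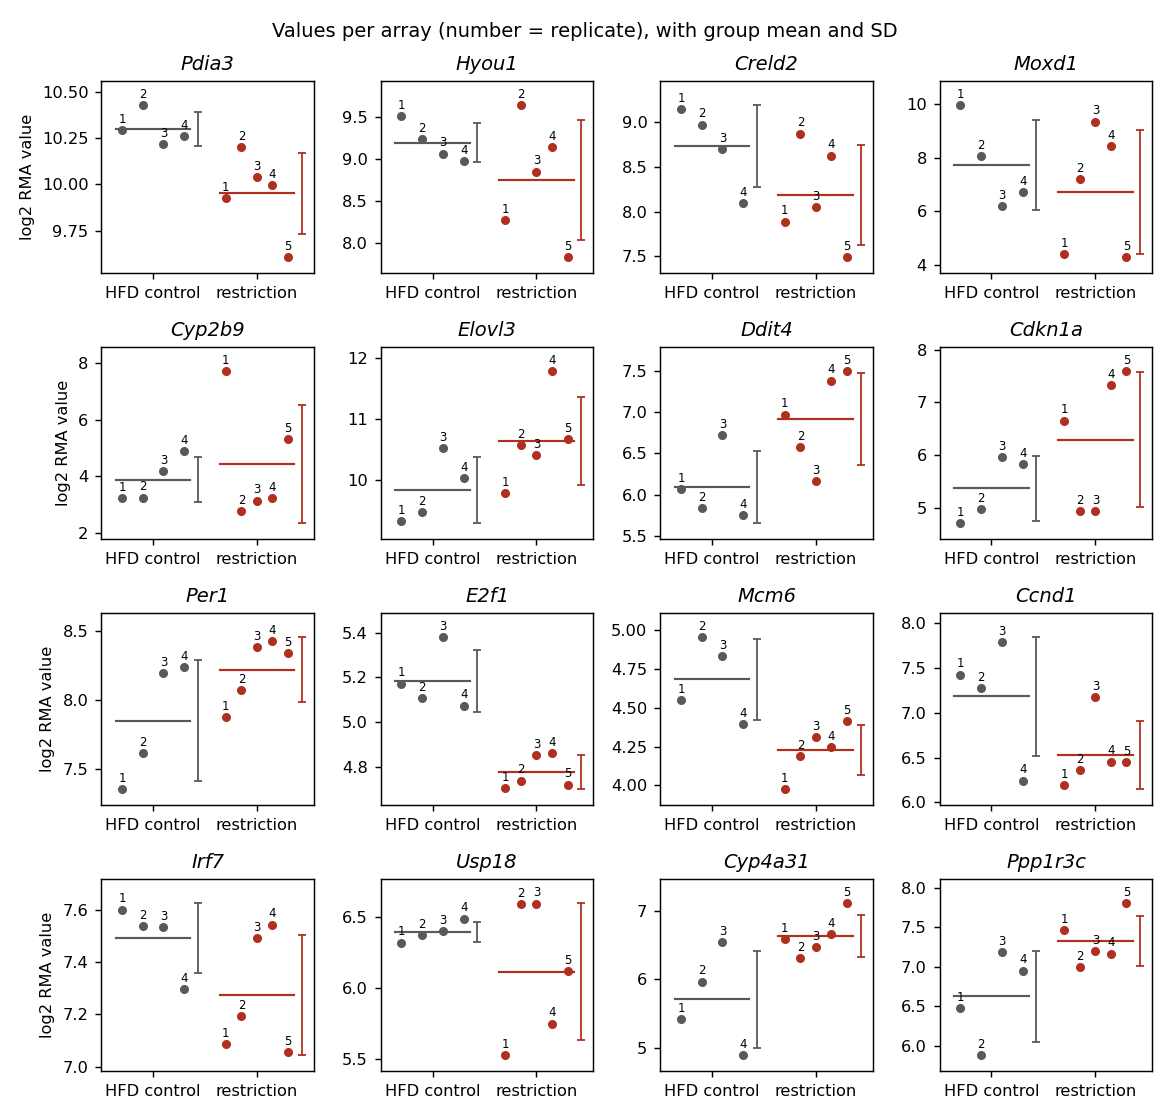
Log2 values (vertical axes, each with its own range) of 16 genes in the 4 HFD control arrays (grey) and the 5 restricted arrays (red); numbers are replicates, horizontal lines are group means and bars are 1 SD. Restricted arrays 1 and 5 are the lowest for Hyou1, Creld2 and Moxd1 and the highest restricted arrays for Cyp2b9, whereas E2f1 keeps the 5 restricted arrays together below the controls.

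The growth hormone and IGF axis had 7 of 16 members higher in value (median -0.02). Igf1, the main growth hormone target secreted by the liver, read 10.07, 10.42, 10.18 and 10.34 in controls and 10.13, 10.15, 10.20, 10.28 and 10.30 under restriction. The groups overlapped fully, and the 95% interval of the difference was -0.25 to 0.18. Ghr, the growth hormone receptor, differed by -0.09 ± 0.10. Onecut1, a liver transcription factor, took either a high or a low value in both groups, at 8.62, 8.39, 6.81 and 8.85 in controls and 6.41, 6.55, 8.92, 6.78 and 9.17 under restriction (-0.60 ± 0.58). Igfbp1, a binding protein that insulin represses through FOXO1, read 8.27, 8.92, 8.65 and 8.72 in controls and 8.69, 8.63, 8.74, 10.29 and 10.54 under restriction. Restricted arrays 4 and 5 stood more than 1 log2 unit above every other array of the 2 groups. The remaining 3 restricted arrays were within the control range (0.74 ± 0.55 SE). Under canagliflozin Igfbp1 read 8.71 to 12.49, and its difference from controls was 2.09. Igfbp2 was 9.83 to 10.04 under restriction and 9.94 to 10.07 in controls apart from 9.11 in control array 3. The growth hormone feedback gene Socs2 was 5.73 to 6.54 in controls and 4.96, 5.88, 6.66, 6.48 and 7.61 under restriction, so the 2 arrays with low male-biased genes lay at its opposite ends.

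Of 17 insulin and FOXO-responsive genes, 12 were higher in value (median 0.07). Cited2, a coregulator of gluconeogenic genes, was the 1 member with an unadjusted p under 0.05, at 7.55, 7.65, 7.83 and 8.44 in controls and 8.51, 8.34, 8.19, 8.92 and 7.87 under restriction (0.50 ± 0.22). Irs2, a FOXO target and insulin receptor substrate, differed by 0.13 ± 0.29, and Pdk4, which blocks pyruvate oxidation, by 0.34 ± 0.49. Sesn1, a stress-inducible inhibitor of mTORC1, was 5.54 to 5.73 in controls and 5.49 to 6.15 under restriction.

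Among 26 nutrient sensors and sirtuin-related genes, 15 were higher and 11 lower in value (median 0.02). Nmnat1, which makes NAD in the nucleus, read 5.78, 5.45, 6.34 and 6.28 in controls and 6.40, 6.22, 6.62, 6.49 and 6.17 under restriction (0.41 ± 0.16), and its value was 0.24 without control array 2. Mtor, the kinase of both mTOR complexes, was 7.57 to 7.84 in controls and 7.29 to 7.59 under restriction (-0.21 ± 0.10), overlapping at the edge. Sirt1, the NAD-dependent deacetylase often tied to caloric restriction, differed by 0.13 ± 0.11, with a 95% interval of -0.11 to 0.37. The AMPK catalytic subunits Prkaa1 and Prkaa2 differed by 0.08 ± 0.13 and 0.06 ± 0.12. Autophagy and lysosome genes were divided, with 14 of 26 higher (median 0.01). Map1lc3a, a ubiquitin-like protein of the autophagosome membrane, reached an unadjusted p under 0.05 at 6.11 to 6.38 in controls and 6.34 to 6.67 under restriction (0.24 ± 0.10).

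Genes of fat synthesis and storage were divided between higher and lower values. Of 21 fatty acid and triglyceride synthesis genes, 10 were higher and 11 lower (median -0.00), and none reached an unadjusted p under 0.05. Scd1, the stearoyl-CoA desaturase, read 12.12, 12.84, 12.39 and 12.64 in controls and 12.72, 12.13, 11.68, 12.48 and 13.22 under restriction, so the restricted arrays held both its lowest and its highest value. Fasn, fatty acid synthase, was 9.78 to 10.51 in controls and 9.61 to 10.14 under restriction. Elovl6, which extends palmitate, differed by 0.24 ± 0.23, and Srebf1, the gene of the lipogenic factor SREBP-1, by -0.12 ± 0.24. Without restricted array 3, 6 of the 21 genes were lower.

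Of 20 lipid storage genes and PPAR gamma targets, 11 were higher and 9 lower. Plin2, the main coat protein of hepatic lipid droplets, was 9.60 to 9.96 in controls and 9.45, 9.36, 9.49, 9.37 and 9.74 under restriction. Of the restricted arrays, 4 lay below every control (-0.23 ± 0.13 SE). Plin5, which couples droplets to mitochondria, differed by 0.36 ± 0.22 in the other direction. The fatty liver genes Cidea (0.04 ± 0.13), Cidec (0.23 ± 0.37), Cd36 (0.03 ± 0.28), Mogat1 (0.15 ± 0.12), Fabp4 (-0.01 ± 0.20) and Pparg (0.12 ± 0.26) all overlapped. Plin4 was 5.25 to 5.52 in 3 controls and 7.15 in control array 3, against 5.27 to 6.61 under restriction. Without restricted arrays 1 and 5, 15 of the 20 genes were lower (median -0.21).

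In mitochondrial fatty acid oxidation 9 of 19 members were higher and 10 lower (median -0.00), and none reached an unadjusted p under 0.05. Cpt1a, which admits fatty acids to mitochondria, read 10.80, 10.89, 11.13 and 11.18 in controls and 10.86, 11.03, 10.72, 10.86 and 11.32 under restriction, with a 95% interval of -0.33 to 0.25. Acot2, a mitochondrial acyl-CoA thioesterase and the member with the largest difference, read 6.67, 6.69, 8.03 and 8.07 in controls and 7.55 to 8.17 under restriction, with all restricted arrays above the 2 low controls and 2 of them above every control (0.48 ± 0.35). Without restricted array 3, 4 of these 19 genes were lower, and without restricted arrays 1 and 5, 15 were. In peroxisomal and omega oxidation 8 of 14 were higher (median 0.04), with 5 of 14 higher without restricted array 5 or without control array 1. Cyp4a31, an omega-hydroxylase gene, read 5.42, 5.96, 6.54 and 4.90 in controls and 6.59, 6.31, 6.47, 6.66 and 7.11 under restriction. Of the restricted arrays, 3 were above every control, and arrays 2 and 3 lay just under the highest control (0.92 ± 0.32 SE, 95% interval 0.25 to 1.59). Cyp4a14 had the widest spread of its list, at 5.40, 6.71, 8.94 and 8.31 in controls and 9.62, 8.43, 5.86, 8.10 and 11.07 under restriction, and its difference of 1.27 ± 0.85 was 0.12 without restricted arrays 1 and 5. Cyp4a genes share much sequence, so the member behind each signal is uncertain. Of 5 measured ketone body genes 4 were higher in value, among them Fgf21, a fasting hormone (0.20 ± 0.32), and Acat1, the mitochondrial thiolase (0.11 ± 0.11). The ketone list had 2 of 5 members higher without restricted arrays 1 and 5 (median -0.01) and a median of 0.01 without restricted array 2. Oxidative phosphorylation was even, with 13 of 27 higher (median -0.00), although 20 of 27 were lower without restricted arrays 1 and 5.

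In glucose metabolism, 10 of 15 gluconeogenesis genes were higher in value (median 0.09) and Mdh2, described above, was the 1 member with an unadjusted p under 0.05. The median was 0.03 without control array 2 and 0.04 without control array 1. Got1, the cytosolic aspartate aminotransferase, read 10.97 to 11.09 in controls and 11.33, 10.94, 11.13, 11.90 and 11.97 under restriction. Restricted arrays 4 and 5 were highest for Got1, as they were for Igfbp1, and the Got1 difference was 0.43 ± 0.23 (SE). Pck1, the cytosolic PEP carboxykinase, was 12.33 to 12.66 in controls and 12.48 to 12.82 under restriction. G6pc, which releases free glucose, was 10.91 to 11.38 in controls and 11.23 to 11.74 under restriction. Glycolysis and glycogen genes were divided, with 8 of 16 higher. Ppp1r3c, which targets protein phosphatase 1 to glycogen, read 6.47, 5.88, 7.18 and 6.95 in controls and 7.46, 7.19, 7.16 and 7.81 in restricted arrays 1, 3, 4 and 5, with array 2 the lowest of the restricted (0.70 ± 0.31). Control array 2 held its low end, and the difference was 0.46 without that array.

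Amino acid catabolism and the urea cycle had 22 of 26 members higher in value, each by a small amount (median 0.06, highest 0.28), and none reached an unadjusted p under 0.05. Ass1, the argininosuccinate synthase of the urea cycle, was 6.24 to 7.04 in controls and 6.65 to 7.22 under restriction (0.28 ± 0.15). Cps1, which commits ammonia to urea, differed by 0.02 ± 0.08. Lower members numbered 9 of 26 without restricted arrays 1 and 5. The integrated stress response, which reports amino acid shortage, had 14 of 19 higher (median 0.04), and its target Asns, asparagine synthetase, differed by -0.17 ± 0.19.

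Cholesterol synthesis and uptake had 13 of 16 members higher in value (median 0.09), with wide spread in both groups. Hmgcs1, the HMG-CoA synthase, read 7.74, 8.76, 10.11 and 9.54 in controls and 8.50, 10.10, 8.41, 9.37 and 9.89 under restriction. Sqle, squalene epoxidase, was 6.28 to 7.92 in controls and 5.56 to 8.08 under restriction. The mean over the list was 7.44 to 8.70 in controls, lowest in array 1, and 7.67 to 8.69 under restriction. Without control array 1, 13 of 16 genes were lower in value (median -0.15), so the direction rested on that array, and 8 of 16 were higher without restricted array 2 or without restricted array 5. Bile acid genes had 12 of 18 higher (median 0.05). Cyp7a1, which catalyses the first step of the classical bile acid pathway, was 10.01 to 11.16 in controls and 10.34 to 11.40 under restriction, and Nr0b2, the repressor SHP, differed by 0.36 ± 0.26.

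Xenobiotic metabolism had 17 of 21 members higher in value (median 0.13). Cyp2c54, a cytochrome P450 with near copies, reached an unadjusted p under 0.05 at 9.89 to 10.59 in controls and 10.10 to 10.86 under restriction (0.37 ± 0.16). Without restricted arrays 1 and 5, 12 of 21 were higher (median 0.01), and without control array 1 the median was 0.03. Glutathione and NRF2 target genes were divided (11 of 23 higher), as were acute phase genes (9 of 20 higher). Saa2, a serum amyloid, differed by -0.57 ± 0.44, and without control array 2, 17 of 20 acute phase genes were lower. Of 12 thyroid hormone-responsive genes 9 were higher (median 0.06), among them Thrsp (0.08 ± 0.25), whereas 5 were higher without restricted array 5.

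Steatohepatitis and fibrosis genes were dim, with 12 of 21 at a mean under 5, and 15 of 21 were lower in value (median -0.08). None reached an unadjusted p under 0.05. The mean over the list was 4.70 to 4.74 in controls and 4.61 to 4.69 under restriction, a difference under 0.1. Trem2, a receptor of lipid-associated macrophages, was 4.86 to 5.25 in controls and 4.64 to 5.03 under restriction. Col1a1, the main fibrillar collagen, was 5.76 to 6.04 in controls and 5.53 to 6.07 under restriction, and Ccl2, the monocyte chemokine, was 4.49 to 4.68 in controls and 4.34 to 4.64 under restriction. Ccn2, a matrix protein induced by TGF beta, ran the other way (0.19 ± 0.14). The count was again 15 of 21 without restricted arrays 1 and 5.

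The cell type markers were mixed. Of 12 macrophage markers 9 were lower in value, the largest difference being that of Marco (-0.64 ± 0.41), a scavenger receptor that read 6.01, 7.64, 4.50 and 5.83 in controls and 4.99 to 5.85 under restriction. Clec4f, which defines Kupffer cells, was 7.60 to 8.39 in controls and 7.18 to 8.21 under restriction. Of stellate cell markers 7 of 10 were higher, of endothelial markers 8 of 11, of pericentral hepatocyte markers 5 of 9 and of periportal markers 5 of 8. The 9 neutrophil, 5 adipocyte and 8 kidney tubule markers were all dim. Of 7 pancreatic acinar markers, 2 had an unadjusted p under 0.05, both higher and both dim. These were Cel (3.37 to 3.76 against 3.54 to 4.25) and Cpb1 (2.17 to 2.44 against 2.45 to 2.56). Of all genes tested, 2.06% were higher at that p. The other marker lists held no member at that p, and the counts carry no test.

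Weight-matched restriction and canagliflozin were set against each other in the same limma fit. In that comparison 1 of 22180 genes (0.00451%) had an adjusted p under 0.05, Rtkn, named after its values were seen. Rtkn averaged 5.50 ± 0.12 (SD, n = 5) under restriction and 4.88 ± 0.10 (n = 5) under canagliflozin, with 5.40 ± 0.11 (n = 4) in controls (limma adjusted p = 0.0264 between the treated groups). That call was not tested by leaving out canagliflozin arrays, and it was lost in limma when any of restricted arrays 1 to 4, or control array 2, was left out. Among the genes described above, the lowest adjusted p belonged to Ppp1r3c, at 7.32 ± 0.32 (SD) under restriction and 5.52 ± 0.73 under canagliflozin (limma adjusted p = 0.105). Against the shared controls, Fasn differed by -0.27 under restriction and -1.13 under canagliflozin, Scd1 by -0.05 and -1.04, Fgf21 by 0.20 and 0.90, and Igf1 by -0.04 and -0.01. None of these differences between the treated groups passed the threshold (limma adjusted p = 0.68 for Fasn and Scd1). Several genes described above differed from controls in the same direction in both groups. For restriction and canagliflozin in turn, E2f1 differed by -0.41 and -0.504, Ddit4 by 0.82 and 0.91, and Elovl3 by 0.81 and 1.17. Likewise Ccnd1 differed by -0.65 and -0.89, Creld2 by -0.54 and -0.73, and Cyp4a31 by 0.92 and 1.92. Others ran in opposite directions, such as Ess2 (0.30 and -0.071), Trmt1 (0.31 and -0.029) and Ppp1r3c. The same control arrays enter both differences.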

How the data were processed

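Per the labels, total liver RNA was labelled for Affymetrix whole-transcript arrays. The deposited log2 values are RMA values (background correction, quantile normalization and probe summary), which the authors made in Expression Console, per the submitters' processing notes, in a version that the sources used here do not state. Quantile normalization removes any shift shared by all genes. Of 41345 probe sets, 23521 had 1 gene symbol, 1814 several and 16010 none in the platform table. Each of 22180 genes was represented by its brightest probe set on average (1082 had more than 1). limma 3.58.1 in R 4.3.3 fitted group means over all 14 arrays, with Benjamini-Hochberg adjustment over all genes and a threshold of 0.05. The fit was tested on simulated data with independent errors, which do not cover shifts shared by many genes of an array. The number of arrays limits the precision. Dim means a mean log2 under 5. Named genes were, per direction and at a mean of at least 6, the 10 with the smallest p and the 6 non-overlapping ones with the largest difference, then the 2 of smallest p in each list and a set of key liver genes; further list members were named for their role, with values known. The gene lists and members were chosen with earlier results of these data known. Genes of the lists that were not measured were not analysed here. Promoters come from RefSeq, GRCm38.p6. Between control and restricted arrays of equal replicate number, deviations from the group mean correlated between -0.089 and 0.089. The main fit did not pair arrays, and pairing by deposited position was not tested.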

Additional observations from a re-analysis of the deposited data

Results flagged for a closer look

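Of 198 gene-by-group sets of array values examined, 8 held an array far from the rest of its group, and chance gives about 1 in 20 sets. Control array 3 stood high for Plin4 (7.15, the others 5.25 to 5.52) and Gstm2 (6.58, the others 6.38 to 6.41) and low for Igfbp2 (9.11, the others 9.94 to 10.07). Control array 1 stood low for Ghr (8.97, the others 9.19 to 9.22), Sesn1 (5.54, the others 5.71 to 5.73) and Tsc22d3 (6.48, the others 6.84 to 6.89). Restricted array 3 stood high for Ccnd1 (7.18, the others 6.19 to 6.46) and low for Ccn2 (5.39, the others 5.79 to 5.92).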

How the results depend on the processing

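With 4 and 5 arrays, no limma adjusted p against the controls passed 0.05 under any alternative (872 genes at an unadjusted p under 0.05), except 1 gene, Olfr331, with the deposited order as a covariate. Keeping genes of a mean of at least 5 only left out 12880 of 22180 genes. Then 137 higher and 162 lower genes had an unadjusted p under 0.05, against 457 and 415 over all genes. The larger count thus moved from the higher to the lower side, and the reason was not tested. With the replicate number as a block, 529 higher and 444 lower did, and the restriction against canagliflozin comparison called 2 genes. Leaving out each control or restricted array gave 0 to 1 there (canagliflozin arrays were not left out), and leaving out restricted arrays 1 and 5 gave 0. The block left 7 of 16 cholesterol genes higher.

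Named genes turned sign as follows, and the cause was not tested. Over single left-out arrays the differences ran from -0.15 to 0.23 for Cd36, -0.042 to 0.12 for Cidea, -0.012 to 0.42 for Cidec, -0.10 to 0.74 for Cyp17a1, -0.18 to 0.051 for Cyp2a4, -0.27 to 0.96 for Cyp2b9, -0.25 to 0.11 for Cyp7b1, -0.16 to 0.15 for Fabp4, -0.10 to 0.018 for Igf1, -0.11 to 0.21 for Igfbp2, -0.22 to 0.025 for Nampt, -0.010 to 0.12 for Nnmt, -0.11 to 0.52 for Plin4 and -0.10 to 0.27 for Pparg. With the replicate block Cd36 was -0.016, Cyp7b1 0.019, Fabp4 0.0068, Plin4 -0.066 and Pparg -0.047. Fabp4 was 0.0037 with cyclic loess and 0.0089 with the deposited order. Without restricted arrays 1 and 5, Cd36 was -0.33, Cidea -0.034, Cidec -0.22, Cyp17a1 -0.17, Cyp2b9 -0.84, Cyp7b1 0.21, Fgf21 -0.085, Hsd3b5 0.17, Plin4 -0.30 and Pparg -0.23.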
